A study of Mus musculus with 27 samples.

Results

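Zscan4c, Zscan4d, Zscan4f and Dux were followed through the RNA-seq of a Gas41 knockdown (KD) study in mouse embryonic stem cells (mESCs). These 4 members were the rows whose annotation matched the gene symbol, out of 27080 genes listed in the deposited count tables. Gas41 is a YEATS-domain protein that reads histone acetylation and is shared by the Tip60/p400 and SRCAP chromatin complexes. The cells were J1 mESCs, an established line, kept on gelatin with no feeder cells in medium with serum and the cytokine LIF. Every library came from cells that carried a lentiviral shRNA. In the KD experiment, cells received a control shRNA (shCon, 3 libraries), shGas41-1 (3 libraries) or shGas41-2 (2 libraries) against Gas41, the gene listed as Yeats4, and were harvested 8 days after infection. For differentiation, shCon cells were kept undifferentiated (EB day 0, 2 libraries, replicates 2 and 3) or grown without LIF as embryoid bodies (EBs), cell aggregates in which mESCs differentiate, for 6 days (EB day 6, 2 libraries, replicates 2 and 3). shGas41-1 and shGas41-2 are different hairpins in the same cell line, and the EB comparison used the control shRNA alone.

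Zscan4 genes encode nuclear proteins with a SCAN domain and zinc fingers. They are transcribed in the 2-cell mouse embryo and, in an mESC culture, only in a small and changing minority of cells, where they are known for lengthening telomeres through recombination. Dux encodes a homeodomain transcription factor that acts at the start of embryonic transcription and activates the Zscan4 genes together with many other genes of the 2-cell stage. Zscan4c is the copy best known from mESCs and Zscan4d the copy best known from the 2-cell embryo. In bulk RNA-seq, a change in the number of cells that transcribe these genes and a change in RNA per cell cannot be told apart.

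The Zscan4 genes lie in a cluster of near-identical copies, so the identity of a single row has to be read with its sequence. The tables held 6 Zscan4 rows, which spanned 618 kb of chromosome 7 in the mm9 build: Zscan4b, Zscan4c, Zscan4d, Zscan4e, Zscan4f and Zscan4-ps2. Zscan4c (ENSMUSG00000054272) is annotated at chr7:11591071-11595896 on the plus strand. Zscan4d (ENSMUSG00000090714) is at chr7:11746992-11751497 on the minus strand. Zscan4f (ENSMUSG00000070828) is at chr7:11983264-11988090 on the plus strand. The longest annotated transcript of each has 4 exons. Dux (ENSMUSG00000058537) is at chr10:57685047-57688454 on the minus strand, with 2 exons.

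The coding sequences of Zscan4c and Zscan4f differed at 6 of 1518 bases (99.6% identity), and each differed from Zscan4d at 35 bases (97.7%). Zscan4-ps2 was closer still to Zscan4f, with 4 differing bases (99.7%). The stretch of 60 coding bases with the most differences among these 4 rows, coding bases 693 to 752, shows how few letters separate them. Capitals mark the 6 positions at which the 4 rows are not all alike.
Zscan4c: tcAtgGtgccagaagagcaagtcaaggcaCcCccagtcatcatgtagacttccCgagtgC
Zscan4d: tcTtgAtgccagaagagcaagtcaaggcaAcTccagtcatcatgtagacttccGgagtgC
Zscan4f: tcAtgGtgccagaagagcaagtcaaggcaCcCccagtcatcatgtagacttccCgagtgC
Zscan4-ps2: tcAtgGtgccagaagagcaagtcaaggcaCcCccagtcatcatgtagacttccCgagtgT
Even in this stretch Zscan4c and Zscan4f were the same letter for letter, and Zscan4d carried most of the differences. In mm9 the stretch lies at chr7:11594517-11594576 (Zscan4c, plus strand), chr7:11748039-11748098 (Zscan4d, minus strand), chr7:11986710-11986769 (Zscan4f, plus strand) and chr7:12103080-12103139 (Zscan4-ps2, plus strand).

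The likeness ran on into the promoters. Each of the 6 Zscan4 rows had 1 TATAAA in the window from 250 bases before to 50 bases after its annotated start, which was 31 bases upstream of that start in Zscan4c and Zscan4f and 65 bases upstream in Zscan4d. The 150 bases around it are shown for the 3 Zscan4 members, with TATAAA in capitals.
Zscan4c: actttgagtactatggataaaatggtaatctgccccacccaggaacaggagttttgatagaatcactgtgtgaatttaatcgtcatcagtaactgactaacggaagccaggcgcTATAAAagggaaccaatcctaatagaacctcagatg
Zscan4d: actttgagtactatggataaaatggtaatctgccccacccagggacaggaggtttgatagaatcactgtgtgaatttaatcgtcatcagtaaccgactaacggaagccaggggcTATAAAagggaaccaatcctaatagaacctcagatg
Zscan4f: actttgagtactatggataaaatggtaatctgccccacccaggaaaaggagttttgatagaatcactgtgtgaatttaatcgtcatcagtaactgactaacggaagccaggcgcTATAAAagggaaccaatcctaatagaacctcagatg
Zscan4c and Zscan4f differed at 1 of these 150 bases (99.3% identity), Zscan4c and Zscan4d at 4 (97.3%), and Zscan4d and Zscan4f at 5 (96.7%). The windows lie at chr7:11590926-11591075 (plus strand), chr7:11751527-11751676 (minus strand) and chr7:11983119-11983268 (plus strand) of mm9. TATAAA, searched on both strands, was present in 13.4% of the 22380 windows of the same 300-base length at protein-coding genes. GATTNAATC, the core of the sites that Dux binds, reads alike on both strands and was found in 0.223% of these windows. TGCACAC, a motif that Zscan4 binds, was found on either strand in 4.18% of them. Neither set of letters occurred in the 300-base window of any of the 6 Zscan4 rows or of Dux, and TATAAA was also not in the window of Dux.

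Reads from most of these exons could have come from more than 1 gene. Stretches were searched for in a single orientation of the genome, so copies on the opposite strand were not counted. The shares found at a single place are therefore upper limits, and those found in exons of other genes are lower limits. Of the 50-base stretches in the exons of Zscan4f, 2.29% (50 of 2185) occurred at a single place in this search, against 18.7% (393 of 2105) for Zscan4c and 56.3% (1012 of 1796) for Zscan4d. Exons of another Zscan4 row held 93% of the Zscan4f stretches, 75.7% of the Zscan4c stretches and 21.1% of the Zscan4d stretches. Zscan4f shared 86.1% of its stretches with Zscan4-ps2 and 70.6% with Zscan4c. Zscan4d lies on the opposite strand from Zscan4c and Zscan4f, so this search could not find stretches that it shares with them. At 100 bases the shares found at a single place were 6.36% for Zscan4f, 30.8% for Zscan4c and 76.4% for Zscan4d, and at 75 bases 3.74%, 25.3% and 66.1%. Dux was between them, with 38.4% of its 50-base stretches, 51.5% of its 75-base stretches and 63.1% of its 100-base stretches found at a single place. For Dux, 25.8% of the 50-base stretches lay in exons of another gene, which were Gm10807, 4933403O03Rik and Gm4981, and 35.7% only in sequence outside exons. Whether reads that matched several places were counted was not stated, and stretches across exon junctions were not included.

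**Figure D1:**
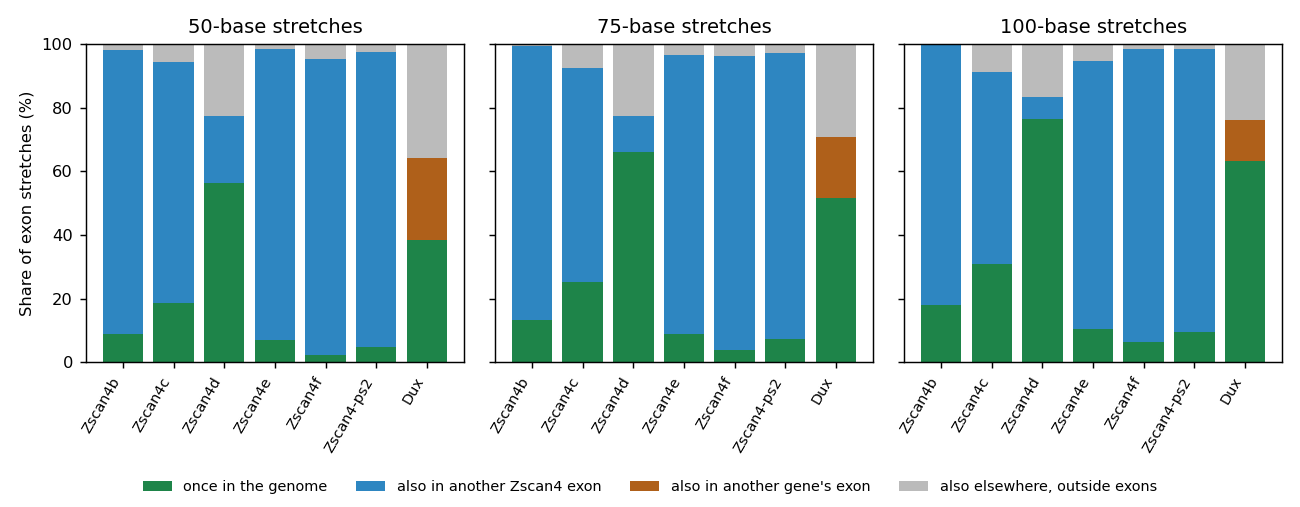
Share of exon stretches (%) of each Zscan4 row and of Dux, for stretches of 50, 75 and 100 bases, that occur at a single place in mm9 or also in another Zscan4 exon, in another gene's exon or only outside exons. Copies on the opposite strand were not counted, so the share at a single place is an upper limit. Zscan4f has the smallest green part (2.29% at 50 bases) and Zscan4d the largest (56.3%).

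The split of counts between the Zscan4 rows varied little in size, although their summed level changed by more than an order of magnitude. Over the 10 libraries of undifferentiated cells, Zscan4f took 23.2 to 25.6% of the counts of the 6 rows, Zscan4c 21.6 to 22.3% and Zscan4d 9.95 to 11.9%. The small differences went with the KD in some rows. Zscan4b took 7.9 to 9.12% in the KD libraries and 9.59 to 10.4% in the controls, and Zscan4e 9.44 to 10.6% and 11.4 to 12.1%. Zscan4f took 24.5 to 25.6% and 23.2 to 23.9%, and Zscan4-ps2 23.1 to 23.8% and 21.5 to 22.6%. Zscan4c and Zscan4d overlapped. The cause was not tested. The Zscan4c count was 0.84 to 0.96 times that of Zscan4f, and the Zscan4d count 0.42 to 0.49 times. The row with the fewest stretches found at a single place in that search, Zscan4f, had the highest count in each of these libraries. Zscan4d, with the most in the same search, had a lower one. Zscan4b and Zscan4e had few such stretches too, at 8.84% and 7.17% of 50 bases. Their counts were also low, at 0.31 to 0.45 and 0.37 to 0.52 times that of Zscan4f, so counts did not follow this share over the rows. Per kb of exon, Zscan4c and Zscan4f were close in the shCon libraries, at 17.8 ± 20.1 and 18.3 ± 20.8 CPM per kb (SD, n = 3), and Zscan4d was at 10.2 ± 11.8. CPM is a gene's count per 1000000 counts of its library. The 3 Zscan4 members are therefore described together, and a difference between them is not read as a difference between genes.

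**Figure D2:**
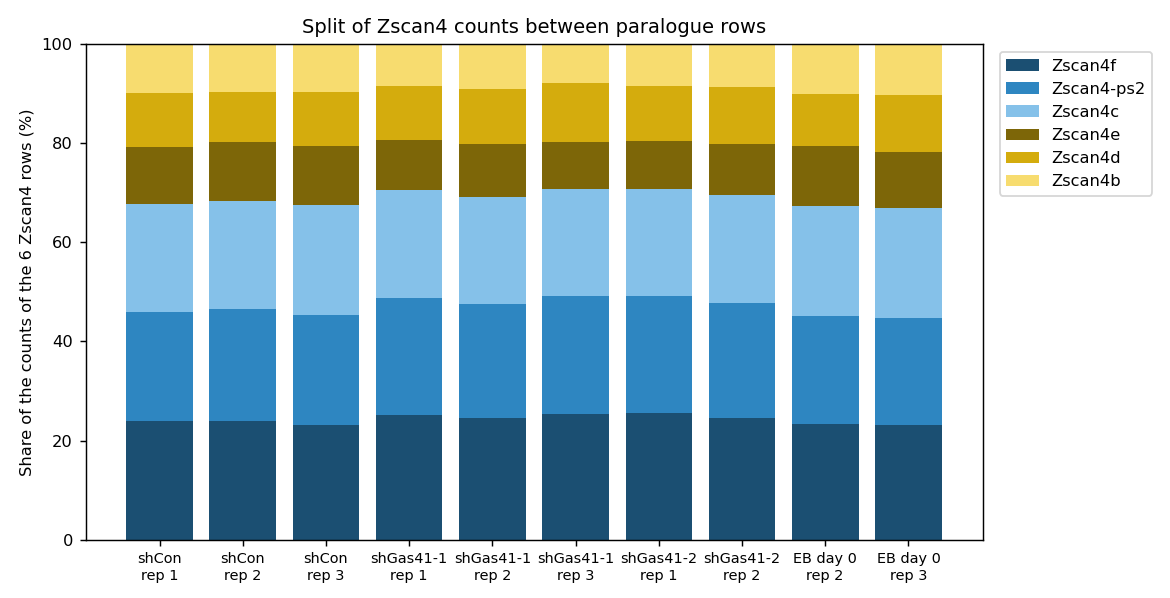
Share (%) of the counts of the 6 Zscan4 rows that each row took in the 10 libraries of undifferentiated cells, 1 bar per library. The bars differ by small amounts from library to library, with Zscan4f at 23.2 to 25.6% and Zscan4d at 9.95 to 11.9%. Zscan4b and Zscan4e take less in every KD library than in any control library.

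Library totals ran from 59224537 to 81524773 counts, so that 3 counts were worth 0.0368 to 0.0507 CPM. Yeats4, the targeted gene, was at 63.2, 54.5 and 52.1 CPM in shCon, at 3.5, 4.42 and 4.79 CPM in shGas41-1 and at 8.68 and 7.68 CPM in shGas41-2, so its level went with the labels in all 8 libraries. It stayed between 43.6 and 50.2 CPM in the 4 EB libraries. The 9 markers of pluripotent cells summed to 4758 to 6126 CPM in the 10 undifferentiated libraries, and the fibroblast markers to 6.32 to 19.8 CPM. At EB day 6 the pluripotency markers summed to 1229 and 1574 CPM, and the mesoderm and epiblast markers to 1080 and 1464 CPM, against 17.0 to 29.2 CPM in undifferentiated cells.

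The Zscan4 members were transcribed in every undifferentiated library, but not evenly. Zscan4c was at 94.4, 17.1 and 11.4 CPM in shCon replicates 1, 2 and 3. It was at 256, 148 and 242 CPM in shGas41-1 and at 201 and 82.6 CPM in shGas41-2. At EB day 0 it was at 21.8 and 11.2 CPM, and at EB day 6 at 0.0444 CPM (3 counts) and 0. These values put shCon replicate 1 well above the other control libraries, inside the range set by the shGas41-2 libraries.

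Zscan4d was at 47.5, 7.83 and 5.62 CPM in shCon, at 126, 75.7 and 132 CPM in shGas41-1 and at 104 and 43.7 CPM in shGas41-2. Its EB day 0 libraries had 10.1 and 5.73 CPM, and its EB day 6 libraries 0.0888 CPM (6 counts) and 0. Zscan4f was at 103, 18.8 and 12.0 CPM in shCon, at 295, 167 and 282 CPM in shGas41-1 and at 239 and 93.7 CPM in shGas41-2. For both genes every shGas41-1 library lay above every shCon library, and shGas41-2 replicate 2 lay below shCon replicate 1. Zscan4f had 22.9 and 11.7 CPM at EB day 0, and 0.0444 CPM (3 counts) and 0 at EB day 6.

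Dux was read at counts so low that each library is given in counts. The shCon libraries had 19, 7 and 1 counts, the shGas41-1 libraries 92, 44 and 34, and the shGas41-2 libraries 65 and 35. In CPM these were 0.321, 0.101 and 0.0138 for shCon, 1.22, 0.562 and 0.525 for shGas41-1, and 0.797 and 0.437 for shGas41-2. All 5 KD libraries were above all 3 shCon libraries, which was not so for the Zscan4 members in shGas41-2. EB day 0 had 11 and 4 counts (0.154 and 0.0628 CPM), and EB day 6 had 1 count and 0.

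**Figure D3:**
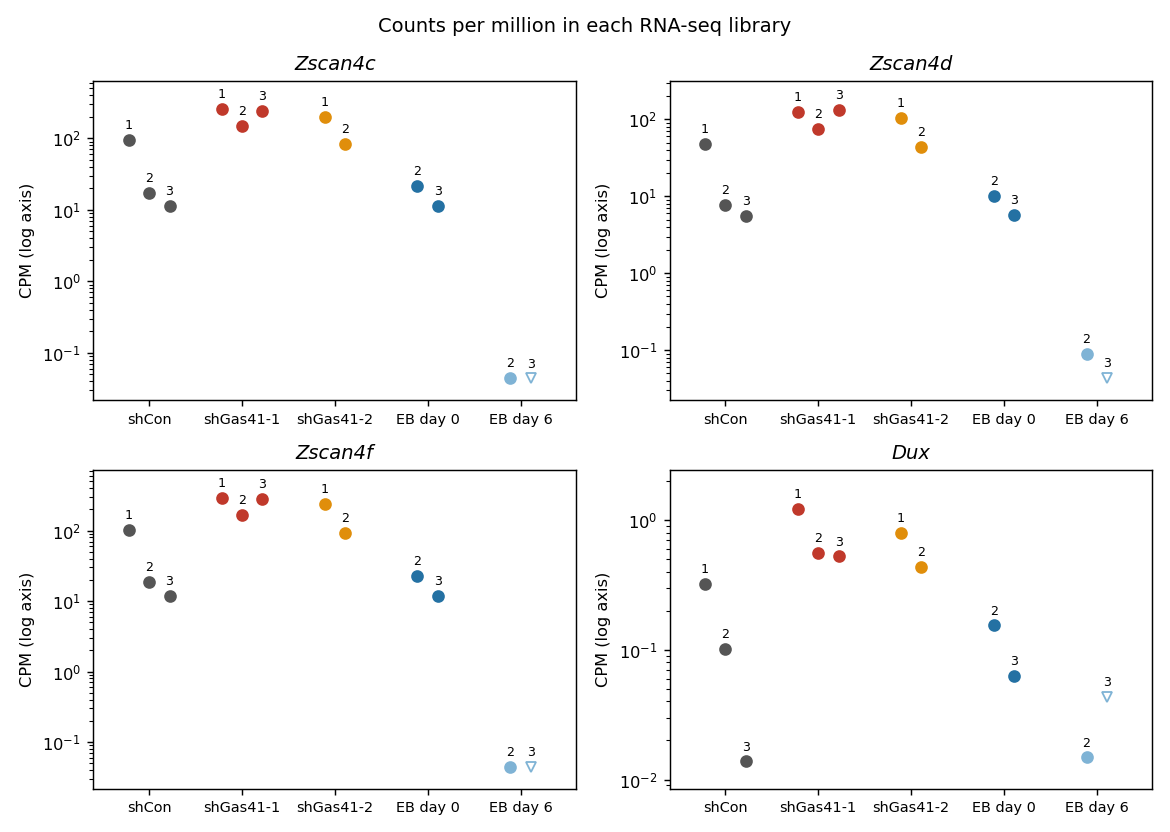
CPM (log axis) of each member in the 12 RNA-seq libraries, 1 point per library with its replicate number, by group. A library with 0 counts is an open triangle at the level that 3 counts would give, as an upper limit; shCon replicate 1 is the highest control point in all 4 panels, and the EB day 6 points are the lowest of each Zscan4 panel.

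Over the 5 undifferentiated libraries without Gas41 KD, the order was shCon replicate 1 first, then EB day 0 replicate 2 and shCon replicate 2, with shCon replicate 3 and EB day 0 replicate 3 lowest. This order was the same in all 3 Zscan4 members except that the last pair changed places in Zscan4d. The highest was 8.43 times the lowest for Zscan4c, 8.44 times for Zscan4d and 8.80 times for Zscan4f, and 23.2 times for Dux, where the lowest rested on 1 count. In comparison, the highest of the 5 KD libraries was 3.10, 3.02 and 3.15 times the lowest for the 3 Zscan4 members and 2.80 times for Dux. Control libraries therefore spanned a wider ratio than KD libraries in all 4 members, but for the Zscan4 members this rested on shCon replicate 1. Without it, the controls ran from 11.2 to 21.8 CPM for Zscan4c, 5.62 to 10.1 for Zscan4d and 11.7 to 22.9 for Zscan4f. Those ranges are narrower by ratio than the KD ranges.

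shCon replicate 1 set much of that spread. It was at 6.61, 7.06 and 6.69 times the mean of shCon replicates 2 and 3 for Zscan4c, Zscan4d and Zscan4f, and at 5.59 times for Dux. Of the 14465 genes with a mean of at least 1 CPM, 142 (0.982%) were at least 2-fold above that mean and above both libraries in shCon replicate 1, and they included the 3 Zscan4 members. Zscan4f was the 8th highest of the 14465 genes by this ratio. Of 12 other 2-cell genes at this level, 11 were among the 142. For the markers it was 0 of 8 for pluripotency, 0 of 5 for primitive endoderm and 0 of 4 for trophoblast. At a share of 0.982%, a count of 0 does not set these short lists apart from other genes. Over 21 listed 2-cell genes, the highest shCon value was in replicate 1 for 20, and AA792892, the remaining gene, had 0 counts in all 3. Some of the 20 had very few counts, such as Tdpoz2 at 0.0338, 0.0288 and 0.0276 CPM, below the level of 3 counts. The share of all genes with replicate 1 highest was not counted. The cause of the higher level in this library was not tested, and each comparison with shCon is given with and without it.

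With shGas41-1, Zscan4c, Zscan4d, Zscan4f and Dux all rose. Zscan4c averaged 215 ± 58.8 CPM (SD, n = 3) against 41.0 ± 46.3 CPM in shCon (n = 3), Zscan4d 111 ± 31.1 against 20.3 ± 23.5 CPM, and Zscan4f 248 ± 70.4 against 44.6 ± 50.7 CPM. Dux averaged 0.770 ± 0.393 against 0.145 ± 0.158 CPM. The SD of shCon was larger than its mean in all 4 genes.

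In edgeR's quasi-likelihood test over 18274 genes with Benjamini-Hochberg adjustment, a gene was called at a log2 fold change of at least 1 in size and an FDR of at most 0.05. All 4 members were called up, where 7.90% of tested genes were called up and 2.40% down. The log2 fold change was 2.47 ± 0.72 (SE) for Zscan4c (FDR 0.0445), 2.54 ± 0.74 for Zscan4d (FDR 0.0444) and 2.56 ± 0.73 for Zscan4f (FDR 0.042). It was 2.53 ± 0.71 for Dux (FDR 0.0403). Each corresponds to a rise of 5.55 to 5.89 fold, close to the FDR limit. By size of rise, 332 genes stood above Zscan4f and 343 above Dux. Every shGas41-1 library was above every shCon library for all 4 members, as it was for 18.1% of tested genes. The paralogue rows had like values, at 2.58 ± 0.72 for Zscan4-ps2 (FDR 0.039, called), 2.28 ± 0.70 for Zscan4b (FDR 0.0549, not called) and 2.28 ± 0.69 for Zscan4e (FDR 0.0515, not called).

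These calls depended on single libraries. Without shCon replicate 1 the log2 fold changes of the Zscan4 members were 3.99 to 4.13, a rise of 15.9 to 17.5 fold (edgeR FDR 0.000247 to 0.00027), and that of Dux was 3.79 ± 0.70 (FDR 0.0083). The Zscan4 members were not called without shCon replicate 2 (log2 fold change 2.10 to 2.18, FDR 0.123 to 0.128), without shCon replicate 3 (2.02 to 2.10, FDR 0.0811 to 0.0926), without shGas41-1 replicate 1 (2.36 to 2.47, FDR 0.105 to 0.11) or without shGas41-1 replicate 3 (2.34 to 2.41, FDR 0.0639 to 0.069). Dux was not called without shCon replicate 2 (2.33, FDR 0.134), shCon replicate 3 (1.95, FDR 0.0808) or shGas41-1 replicate 1 (2.05, FDR 0.138). The direction was up in every one of these fits. Over the 13 alternatives run, which include these, the edgeR or DESeq2 FDR ran from 0.000261 to 0.128 for Zscan4c, 0.000247 to 0.125 for Zscan4d, 0.00027 to 0.123 for Zscan4f and 0.00438 to 0.138 for Dux, and the members were called in 8, 9, 9 and 10 of them.

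With shGas41-2 the 4 members lay higher than in shCon on average, by an amount that did not pass the test. Zscan4c averaged 142 ± 84.0 CPM (SD, n = 2), Zscan4d 74.0 ± 42.9 CPM, Zscan4f 166 ± 102 CPM and Dux 0.617 ± 0.255 CPM. The log2 fold change against the same 3 shCon libraries was 1.87 ± 0.80 (SE) for Zscan4c, 1.95 ± 0.82 for Zscan4d, 1.98 ± 0.82 for Zscan4f and 2.22 ± 0.76 for Dux. The FDR was 0.173, 0.165, 0.159 and 0.103 in edgeR's test over 18405 genes.

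In this comparison 0 of 4 members were called, where 3.96% of tested genes were called up and 0.869% down. All 4 had an unadjusted edgeR p under 0.05 (0.0484, 0.0445, 0.0421 and 0.0197), as had 5209 of all 18405 tested genes. DESeq2 and edgeR's exact test also called 0 of 4. Both shGas41-2 libraries were above every shCon library for Dux alone, as they were for 18.2% of tested genes. For the Zscan4 members replicate 2 was at 0.88, 0.92 and 0.91 times shCon replicate 1, and at 3.79, 4.32 and 4.10 times the highest of the other 4 control libraries.

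Leaving out shCon replicate 1 changed this result. All 4 members were then called up by edgeR, with log2 fold changes of 3.39 to 3.54 for the Zscan4 members (10.5 to 11.6 fold, FDR 1.39e-05 to 2.31e-05) and 3.49 ± 0.65 for Dux (FDR 0.00263). Leaving out any other library left them uncalled. The lowest values of the Zscan4 members were 1.11 to 1.21, without shGas41-2 replicate 1 (FDR 0.573 to 0.597), and the lowest of Dux was 1.65, without shCon replicate 3 (FDR 0.113).

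**Figure D4:**
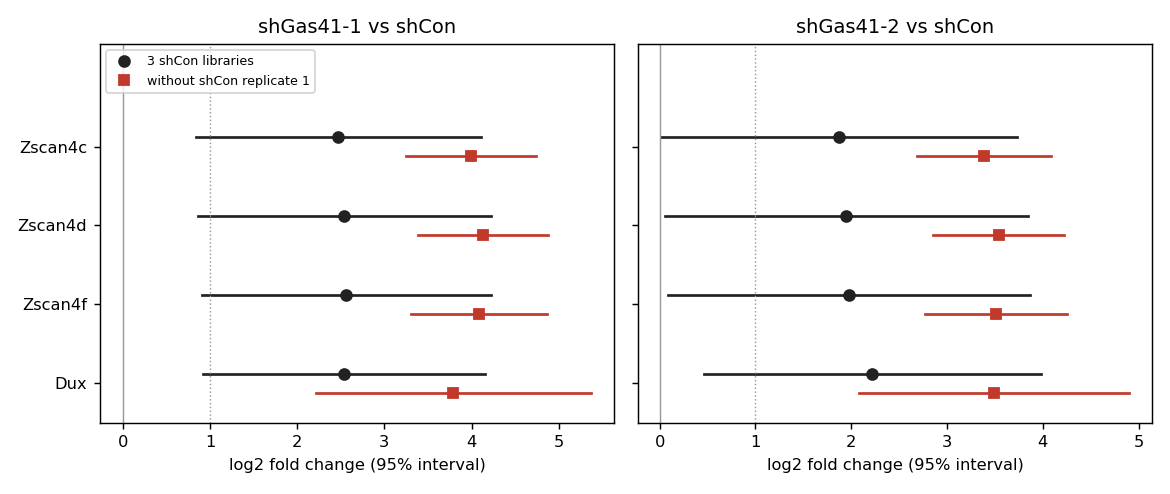
log2 fold change against shCon (points) with its 95% interval from edgeR's quasi-likelihood fit (bars) for the 4 members, with all 3 shCon libraries (black circles) and without shCon replicate 1 (red squares); the dotted line is at 1. Without that library the values move from 1.87 to 2.56 up to 3.39 to 4.13, and the Zscan4 intervals narrow.

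The shRNAs were also compared directly, since both comparisons above share the shCon libraries and give no test of a difference between them. Fitted over the 8 libraries of the KD experiment, the shGas41-1 libraries were higher than the shGas41-2 libraries by a log2 fold change of 0.62 for Zscan4c (95% interval -1.12 to 2.35), 0.61 for Zscan4d (-1.15 to 2.37), 0.60 for Zscan4f (-1.16 to 2.36) and 0.32 for Dux (-1.13 to 1.77). None of the 4 was called (edgeR FDR 0.932 to 0.959), and their unadjusted p ran from 0.445 to 0.635. Over all 19146 genes tested, 0 were called (0%), with 1348 at an unadjusted p under 0.05. DESeq2 called 71 genes and 0 of the members. Yeats4 itself was lower with shGas41-1, by a log2 fold change of -0.94 ± 0.18 (FDR 0.198, not called). All 4 intervals include 0 and are wide. Leaving out 1 shGas41-2 library moved the Zscan4 values to 1.33 to 1.38 (without replicate 1, a fold of 2.51 to 2.61) or to 0.08 to 0.12 (without replicate 2, a fold of 1.06 to 1.09), with none called. For Dux the sign turned without shGas41-1 replicate 1 (-0.15) and without shGas41-2 replicate 2 (-0.03).

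During EB differentiation the Zscan4 transcripts fell to the limit of detection. Zscan4c averaged 16.5 ± 7.5 CPM (SD, n = 2) at EB day 0 and had 3 counts in 1 of the 2 EB day 6 libraries and 0 in the other. Summed over the 2 libraries of each day, Zscan4c went from 2269 to 3 counts, Zscan4d from 1088 to 6, Zscan4f from 2378 to 3 and Dux from 15 to 1. The 6 Zscan4 rows together went from 10188 counts to 18.

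Scaled by library totals, the level at EB day 0 was 763 times that at EB day 6 for Zscan4c (exact 95% interval of the counts 261 to 3704), 183 times for Zscan4d (83.8 to 500) and 800 times for Zscan4f (273 to 3882). It was 571 times for the 6 rows together (361 to 964) and 15.1 times for Dux (2.33 to 637). These intervals cover counting error only. All day 6 counts came from replicate 2. In replicate 3 a count of 0 allows up to 0.0436 CPM, which left the lower of the EB day 0 libraries at least 256-fold higher for Zscan4c, 131-fold for Zscan4d and 268-fold for Zscan4f.

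edgeR's test over 18287 genes called the 3 Zscan4 members down, where 14.7% of tested genes were called down and 16.6% up. The fitted log2 fold change, which at so few counts depends on the prior count of the fit, was -9.35 ± 0.66 (SE, FDR 7.35e-05) for Zscan4c, -7.35 ± 0.68 (FDR 0.000212) for Zscan4d and -9.42 ± 0.66 (FDR 7.21e-05) for Zscan4f. Both EB day 6 libraries lay below both EB day 0 libraries, as for 45.4% of tested genes. Of the 18287 tested genes, 18275 had a higher fitted value than Zscan4f. Dux did not pass the filter on low counts and was not tested. Without that filter its log2 fold change was -3.51 ± 1.45 (FDR 0.0865), not called. The call of the Zscan4 members held when any 1 of the 4 libraries was left out. The fitted value depended on which EB day 6 library was kept: without replicate 3 it was -8.40 for Zscan4c, -6.37 for Zscan4d and -8.47 for Zscan4f, and without replicate 2, the library that held all day 6 counts, -13.10, -12.04 and -13.17.

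The rows that share exon sequence with Dux were also higher on average in the KD libraries. They were picked for the shared sequence and lie outside the rule for named genes. Gm10807, which held 19.8% of the 50-base stretches of Dux, had 33, 4 and 1 counts in shCon, 124, 101 and 69 in shGas41-1, 142 and 83 in shGas41-2, 15 and 12 at EB day 0, and 0 in both EB day 6 libraries. 4933403O03Rik, with 12.5% of the stretches, had 8, 1 and 0 counts in shCon and 34, 28, 21, 53 and 27 in the 5 KD libraries. Gm4981, with 5.18% of them, had 6, 0 and 0 counts in shCon and 3 to 23 in the KD libraries. All 5 KD libraries were above all shCon libraries in Gm10807 and 4933403O03Rik, but not in Gm4981. Taken for each shRNA alone, this was so for 18.1% of tested genes with shGas41-1 and 18.2% with shGas41-2. In each row shCon replicate 1 was the highest control library, and how far reads were exchanged between these rows and Dux was not tested.

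The other genes of the 2-cell programme were read from a list of 28 names, of which 21 were in the tables. The list was chosen with earlier results of these data known, so its counts are descriptions and not independent support. With shGas41-1, 17 of 18 tested genes were called up and 0 down, where 7.90% of all tested genes were called up and 2.40% down. All 18 were above 0, with a median log2 fold change of 2.97 beside 0.02 for all tested genes. Tdpoz4, a speckle-type BTB protein gene, had the highest value (4.59 ± 0.61, FDR 0.00306) and Zfp352, a zinc finger gene of the 2-cell embryo, the lowest (1.47 ± 0.33, FDR 0.0185). Arg2, the mitochondrial arginase, rose by 3.44 ± 0.40 (FDR 0.00251) and Sp110, a nuclear body protein gene, by 2.72 ± 0.45 (FDR 0.00593). BC061212 was at 1.74 ± 0.63 (FDR 0.0862) and did not pass, though DESeq2 called 18 of 18.

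With shGas41-2, 6 of 18 tested 2-cell genes were called up and 0 down, where 3.96% of all tested genes were called up and 0.869% down. All 18 were above 0, with a median log2 fold change of 2.45 beside -0.01 for all tested genes. The 6 were Arg2 (2.85 ± 0.47, FDR 0.0122), B020004J07Rik (2.22 ± 0.40, FDR 0.016), Gm428 (2.85 ± 0.71, FDR 0.0457), Sp110 (2.39 ± 0.53, FDR 0.032), Tdpoz3 (2.75 ± 0.62, FDR 0.0344) and Tdpoz4 (3.55 ± 0.79, FDR 0.0322) in edgeR's test. Without shCon replicate 1, 17 of 18 were called up, beside 1174 of all 18327 tested genes. With shGas41-1 it was then 19 of 19, beside 1510 of 18803. All 6 had also been called with shGas41-1 (edgeR FDR 0.0069 for Gm428, 0.00399 for Tdpoz3 and 0.00295 for B020004J07Rik). Their shCon replicate 1 values were likewise the highest of shCon, from 0.692, 0.361 and 0.249 CPM for Arg2 to 1.38, 0.332 and 0.138 CPM for Gm428.

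During EB differentiation 12 of 14 tested 2-cell genes were called down and 0 up, where 14.7% of all tested genes were called down and 16.6% up. All 14 were below 0, with a median log2 fold change of -3.62 beside 0.00 for all tested genes. Gm5662 had the largest fall (-9.42 ± 0.82, FDR 0.000164), like that of Zscan4f. Arg2 (-0.54 ± 0.56, FDR 0.437) and Tmem92 (-1.60 ± 0.90, FDR 0.169) did not pass. The summed level of the 21 genes was 21.2 to 152 CPM in shCon, 353 to 633 in shGas41-1, 205 to 455 in shGas41-2, 22.6 to 45.1 at EB day 0 and 2.16 to 2.27 at EB day 6. Several of the listed genes are themselves members of families of near-identical copies, so they are not independent of each other.

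**Figure D5:**
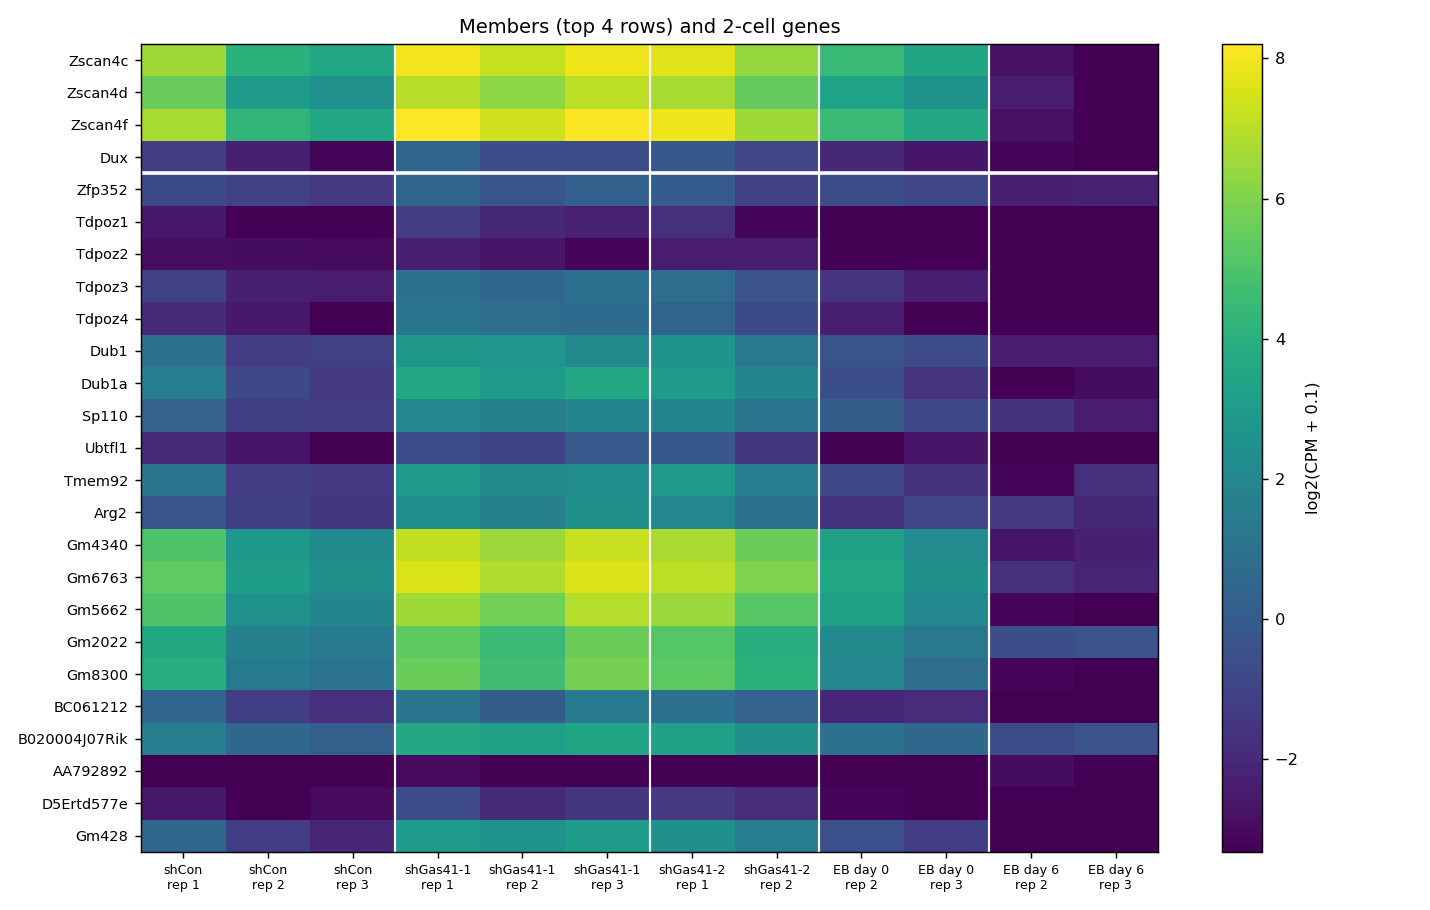
log2(CPM + 0.1) of the 4 members (above the white line) and of the 21 listed 2-cell genes in the 12 libraries, with white lines between groups. The shCon replicate 1 column is brighter than those of shCon replicates 2 and 3 for most of the 21 listed genes, and the shGas41-1 and shGas41-2 columns are brighter still for most of them.

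Genes known to act on Dux or Zscan4 were read from lists of 6 activators (Dppa2, Dppa4, Tbx3, Trp53, Nelfa, listed as Whsc2, and Smarca5) and 17 repressors. None of the 23 was called in either KD comparison by edgeR or DESeq2, where edgeR's calls over all tested genes made up 7.90% (higher) and 2.40% (lower) for shGas41-1, against 3.96% (higher) and 0.869% (lower) for shGas41-2. At these shares a count of 0 does not set the lists apart from other genes. At an unadjusted edgeR p under 0.05 there were 2 activators and 4 repressors with shGas41-1, beside 6405 of all 18274 tested genes, and 1 activator and 5 repressors with shGas41-2, beside 5209 of 18405. Dppa2, which binds the Dux promoter together with Dppa4, was at 0.63 ± 0.17 (FDR 0.035) with shGas41-1 and 0.55 ± 0.16 (FDR 0.0665) with shGas41-2, under the fold limit. Tbx3 was at -0.85 ± 0.20 (FDR 0.0218) and -0.21 ± 0.15 (FDR 0.39). Among the repressors Rif1 had the highest value with shGas41-1 (0.64 ± 0.11, FDR 0.00714), and Pcgf6, a Polycomb subunit, with shGas41-2 (0.31 ± 0.10, FDR 0.0869).

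In the EB comparison 3 of 6 activators were called down, where 14.7% of all tested genes were called down, and 5 of the 6 were below 0. The 3 were Tbx3 (-3.09 ± 0.45, FDR 0.00152), Dppa2 (-2.08 ± 0.24, FDR 0.000566) and Dppa4 (-1.83 ± 0.25, FDR 0.00109). Of 17 repressors 2 were called up, Smchd1 (1.32 ± 0.09, FDR 5.6e-05) and Lin28a (1.10 ± 0.08, FDR 9.85e-05), and 0 down. The count called up was near the 16.6% of all tested genes. Of 7 telomere and meiotic recombination genes, 6 were tested in each comparison. Smc1b, a cohesin subunit of meiosis, rose with shGas41-1 (1.93 ± 0.22, FDR 0.00251) and shGas41-2 (1.61 ± 0.18, FDR 0.00277) and fell in EBs (-2.90 ± 0.26, FDR 0.000187) in edgeR's test. No other gene of that list was called in these comparisons. Tert, the telomerase catalytic subunit, was at -0.83 ± 0.25 (FDR 0.051) and -0.73 ± 0.26 (FDR 0.113) with the 2 shRNAs, and without shCon replicate 1 it was called down with shGas41-1 (-1.06, FDR 0.0103).

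Markers of pluripotency and of other cell types were read beside these results. For shGas41-1, edgeR called 7.90% of all tested genes higher and 2.40% lower. For shGas41-2, these shares were 3.96% and 0.869%. With shGas41-1, 3 of 9 pluripotency markers fell, which were Klf4 (-1.13 ± 0.19), Esrrb (-1.04 ± 0.24) and Tfcp2l1 (-1.55 ± 0.29), and Dppa3, a maternal-effect gene also active in germ cells, rose (2.90 ± 0.37, edgeR FDR 0.00295). Pou5f1 (0.05 ± 0.15) and Nanog (0.09 ± 0.16) did not pass. With shGas41-2, 0 of the 9 were called, with Dppa3 at 1.15 ± 0.35 (FDR 0.0742) and Tfcp2l1 at -0.83 ± 0.22 (FDR 0.0546), and without shCon replicate 1 both were called, at 1.36 and -1.01. The trophoblast markers moved both ways. Gata3 rose with shGas41-1 (4.3 ± 0.43, FDR 0.0021) and with shGas41-2 (3.26 ± 0.37, FDR 0.00279). Cdx2 rose with shGas41-1 (2.5 ± 0.45, FDR 0.00776) and was at 1.79 ± 0.52 with shGas41-2 (FDR 0.0681), while Eomes fell with shGas41-1 (-1.0 ± 0.27, FDR 0.0343) and was at -0.67 ± 0.23 with shGas41-2 (FDR 0.107). In all, 2 of 4 tested were called up and 1 down with shGas41-1, and 1 of 5 up and 0 down with shGas41-2. Their summed level was 36.6 to 54.9 CPM in shCon and 24.5 to 32 CPM in the KD libraries, and that of the primitive endoderm markers was 2.79 to 3.48 and 3.52 to 6.76 CPM. All 5 primitive endoderm markers were above 0 with each shRNA, and 1 was called up with each. These were Gata6 with shGas41-1 (1.76 ± 0.40, FDR 0.0188) and Sox7 with shGas41-2 (1.23 ± 0.26, FDR 0.0292). Their part in the Zscan4 result was not tested.

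Among genes outside these lists with a mean of at least 1 CPM, the level pattern most like the mean of the 4 members over the 12 libraries was that of Gm8766 (Pearson r of log2(CPM + 0.1) 0.995), followed by Gm8332 (0.994), Gm4782 (0.989), Gm8038 (0.987) and Gm12688 (0.986). Gm8766 was at 33.7, 7.20 and 4.45 CPM in shCon, 146, 91.5 and 154 CPM in shGas41-1, 107 and 50.7 CPM in shGas41-2, 9.62 and 4.85 CPM at EB day 0, and 0.0592 and 0.102 CPM at EB day 6. Its shCon replicate 1 was thus also the highest control library. The 12 points share libraries and groups, and the near absence at EB day 6 weighs heavily in r, so these values are descriptions. Between the members themselves, r was 0.997 to 1.000 among the Zscan4 rows and 0.861 to 0.887 between Dux and each of them.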

How the data were processed

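RNA was sequenced on an Illumina NextSeq 500 from TruSeq v2 libraries, a kit that does not keep strand. Reads were mapped by the authors to mm9 and its transcriptome with TopHat2 (2.0.10 in the processing notes) and counted per gene with htseq-count of HTSeq 0.6.0. The read length, the annotation release and the handling of reads with several alignments are not given in the sources used here. The deposited values are raw counts per gene. The tables also hold the authors' fold changes, p-values and FDR for each comparison, which were not used. The ChIP-seq samples of the series were not analysed here.

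CPM was computed from each library's total count. Each comparison was fitted in edgeR 4.0.16 (R 4.3.3) on the whole table: filterByExpr (minimum count 10, minimum total 15), TMM scaling, glmQLFit and glmQLFTest, with Benjamini-Hochberg adjustment over all genes tested. DESeq2 1.42.0 was an alternative. SE is the size of the log2 fold change divided by the square root of F. The fits were also run on simulated counts with known changes. These were drawn around a common mean with the spread typical of genes at that level. They do not show how the fits treat rows as uneven as the Zscan4 members in shCon. The labels do not say which libraries came from separate cultures, so p-values measure the spread between these libraries. Exon stretches, promoters and positions were read from NCBIM37 (mm9) with the GENCODE vM1 annotation. Copies of exon stretches on the opposite strand were not searched for.

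The members and gene lists were chosen with earlier results of these data known. Named genes were the members, Yeats4, the other Zscan4 rows, list genes past the thresholds in at least 1 comparison or at the ends of their list, and the 5 genes most like the members by each measure. Of 28 names in the 2-cell list, Usp17la is another name for Dub1, which was counted under that name.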

Additional observations from a re-analysis of the deposited data

How the results depend on the processing

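In the shGas41-1 comparison 1882 genes were called. The number was 3383 at an FDR of 0.05 alone, 925 at an FDR of 0.01 with the fold limit, and 1222 to 2049 when 1 library was left out. The member values ran from 2.02 to 3.99 (Zscan4c), 2.09 to 4.13 (Zscan4d), 2.10 to 4.09 (Zscan4f) and 1.95 to 3.79 (Dux) when 1 library was left out. With library size alone Zscan4c was at 2.39 and no longer called.

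In the shGas41-2 comparison 888 genes were called. The number was 1339 with edgeR's exact test, 1824 at an FDR of 0.05 alone, 328 at an FDR of 0.01 with the fold limit, and 287 to 1467 when 1 library was left out. The members then ran from 1.11 to 3.39 (Zscan4c), 1.21 to 3.54 (Zscan4d), 1.17 to 3.51 (Zscan4f) and 1.65 to 3.49 (Dux). In the EB comparison 5726 genes were called, 10779 at an FDR of 0.05 alone and 3710 to 5958 when 1 library was left out. In the direct comparison of the shRNAs edgeR called 0 genes and DESeq2 71, and Dux ran from -0.15 to 0.78, with -0.03 without shGas41-2 replicate 2. Leaving an arm with 1 library assumes that it varies like the others. The causes were not tested.

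With the replicate number as a block, 1321 genes were called with shGas41-1 and 1334 with shGas41-2. In the latter fit the members were called up, at 1.72 (Zscan4c, edgeR FDR 4.41e-18), 1.80 (Zscan4d, 5.51e-17, and Zscan4f, 1.25e-19) and 1.70 (Dux, 0.00317). The replicate block changed no other call of a member. The numbers were not shown to pair the libraries: the deviations of same-numbered libraries correlated at 0.01, 0.14 and -0.39 with shGas41-1, 0.34 and 0.24 with shGas41-2, and 0.05 in the EB comparison. Dux has no value in the main EB fit. Depth limits Dux, read at 0 to 92 counts a library.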

Other observations

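After the mean of each group was taken out, the genes outside the lists that varied most like the 4 members from library to library were Gm11238 (Pearson r of log2(CPM + 0.1) 0.979 over 12 libraries), Gm11237 (0.974), Psg16 (0.974), Gm6346 (0.973) and Gm11640 (0.972). Gm6346 was at 3.55, 0.548 and 0.373 CPM in shCon, 11.8, 6.76 and 12.9 CPM in shGas41-1, 9.87 and 4.95 CPM in shGas41-2, 0.855 and 0.345 CPM at EB day 0, and 0 at EB day 6. Psg16, a pregnancy-specific glycoprotein gene, followed the same library-to-library order over a much smaller range, at 117, 96.6 and 89.8 CPM in shCon and 117, 106 and 115 CPM in shGas41-1. Leaving out 1 library lowered r to 0.965 at least for Psg16 and to 0.907 for Gm6346. With a pseudocount of 1 CPM, Psg16 ranked 32nd and Gm11640 37th, and Gm11237 5th. The 12 points share libraries and groups, and many genes were searched, so these are descriptions.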
